A study of Mus musculus with 8 samples.

Results

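Members of several families of transcription factors hold endothelial cells in their identity. Described here are 9 of them, chosen by symbol: Gata4, Meis2 and Tal1, the SoxF factors Sox7, Sox17 and Sox18, and the ETS factors Erg, Fli1 and Ets1. These factors, and the gene lists set beside them, were chosen with earlier results of these data known. Their counts against all genes are therefore descriptions. All 9 were found among the 21968 named genes of the series, and all 9 passed the filter for low counts. They were read as a measure of endothelial RNA in 4 groups of sorted mouse liver cells. In bulk RNA, fewer cells of a type and less RNA per cell cannot be told apart.

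The mice all carried an Lgr5-LacZ transgene on a mixed C57BL/6 and CBA background. Each had received 1 intraperitoneal injection of carbon tetrachloride (CCl4, 1 µl per g of body weight in rapeseed oil), a toxin of pericentral hepatocytes, 6 days before the liver was taken, and no uninjured group was analysed here. Their age is 10 to 12 weeks by the sample labels but 7 to 12 weeks by the series text. The first 2 groups were F4/80high cells, F4/80 being a macrophage antigen, divided by a fluorogenic substrate of β-galactosidase into b-gal+ and b-gal- cells. The third were EpCAM-positive cells, which the series text names cholangiocytes, and the fourth were hepatocytes, which had been pelleted at low speed before sorting. Each group had 2 libraries and each library pooled cells of 2 mice. The p-values below therefore measure only the spread between such pools, and libraries with the same replicate number may come from the same mice.

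Endothelial cells line every vessel, and in the liver most of them form the fenestrated wall of the sinusoids. ETS factors bind the enhancers of nearly all endothelial genes, SoxF factors act in vessel growth and arterial fate, and Gata4 is required in the mouse for the sinusoidal form of liver endothelium. Tal1 acts in the blood and endothelial lineages of the embryo, and Meis2 is a homeodomain factor that works with partner proteins in several organs. Some of these genes are also used outside the endothelium: Fli1 and Ets1 in blood cells, Gata4 in hepatocytes and stellate cells.

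Total reads assigned to named genes ranged from 16948568 to 24549242 per library, with 14432 to 16130 genes detected. A level is given as CPM, read counts per 1000000 reads after TMM scaling, and 3 reads correspond to 0.122 to 0.177 CPM before that scaling. The gates were checked against defining genes. Adgre1, which encodes F4/80, stood at 1731 and 1361 CPM in the b-gal+ libraries but at 311 and 134 CPM in the b-gal- libraries, although both gates are labelled F4/80high. Summed over the 12 Kupffer cell and macrophage markers, the b-gal+ libraries held 35530 to 38753 CPM and the b-gal- libraries 2567 to 3869 CPM. Kdr, a receptor of vascular endothelial growth factor, ran the other way, with 3079 and 3421 CPM in the b-gal- libraries against 364.5 and 238 CPM in the b-gal+ libraries. Stab2, a sinusoidal marker, had 3710 and 4187 CPM in b-gal- cells and 901 and 718 CPM in b-gal+ cells. Clec4f, a Kupffer cell marker, had 8530 and 10238 CPM in b-gal+ cells and 436 and 566 CPM in b-gal- cells. In EpCAM-positive replicates 1 and 2 it had 77.5 and 10.5 CPM. Epcam reached 88.5 and 214 CPM in the EpCAM-positive libraries and at most 1.47 CPM elsewhere, and Alb was at 126463 and 202801 CPM in hepatocytes.

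Upstream sequence was at hand for 3 of the 9 factors, and 1 start site of each is shown so that the letters can be set beside genes that varied together. Each line is the 250 bases before an annotated start, 5′ to 3′ on the strand of the gene (RefSeq, GRCm38.p6), for Erg at chr16:95459349-95459598 (minus strand), Tal1 at chr4:115056176-115056425 (plus strand) and Meis2 at chr2:116064620-116064869 (minus strand). Capitals mark matches to short core motifs, searched on both strands.
Erg: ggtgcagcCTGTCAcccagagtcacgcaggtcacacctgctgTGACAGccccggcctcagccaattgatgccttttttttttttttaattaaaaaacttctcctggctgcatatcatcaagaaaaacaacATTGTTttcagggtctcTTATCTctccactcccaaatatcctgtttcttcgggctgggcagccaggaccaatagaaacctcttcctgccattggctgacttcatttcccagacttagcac
Tal1: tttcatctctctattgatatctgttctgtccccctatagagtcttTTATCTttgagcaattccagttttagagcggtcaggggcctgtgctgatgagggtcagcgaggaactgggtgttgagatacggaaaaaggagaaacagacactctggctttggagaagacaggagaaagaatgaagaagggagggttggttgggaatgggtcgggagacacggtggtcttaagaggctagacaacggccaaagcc
Meis2: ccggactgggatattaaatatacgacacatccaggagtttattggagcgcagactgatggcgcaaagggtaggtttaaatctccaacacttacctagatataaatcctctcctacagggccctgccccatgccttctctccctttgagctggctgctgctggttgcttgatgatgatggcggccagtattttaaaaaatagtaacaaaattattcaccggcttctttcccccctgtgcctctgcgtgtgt
The motifs were CCGGAA for ETS factors, AGATAA for GATA factors, AACAAT for SOX factors, TGACAG for MEIS factors and the E-box CAGCTG, its own reverse complement. None of these overlap in the lines shown. In the Erg sequence, MEIS letters began 242 and 208 bases before the start, SOX letters 120 bases and GATA letters 103 bases before it. The Tal1 sequence held 1 GATA match, 205 bases before its start, and the Meis2 sequence held no match. Another start of Tal1 and the other 2 starts of Erg had none either. For Erg and Tal1 the start shown is thus the only one with a match. Among 32851 promoter windows of the same length, 12.0% held the ETS letters, 9.99% the GATA letters, 9.42% the SOX letters, 15.9% the MEIS letters and 13.0% the E-box. A match describes letters only, and no binding was measured.

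Across the 4 groups, 8 of the 9 factors had the same order of mean levels: highest in b-gal- F4/80high cells, then EpCAM-positive cells, then b-gal+ F4/80high cells, and lowest in hepatocytes. Fli1 was the exception, with b-gal+ and b-gal- levels that overlapped. Together the 9 genes took 0.272% and 0.340% of all reads in the b-gal- libraries. They took 0.160% and 0.143% in the EpCAM-positive libraries, 0.0477% and 0.0394% in the b-gal+ libraries, and 0.00556% and 0.00846% in hepatocytes. The groups did not overlap in this share. Order and overlap of groups, here and below, were not counted over all genes. With 2 libraries per group they describe these factors and do not set them apart from other genes.

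**Figure D1:**
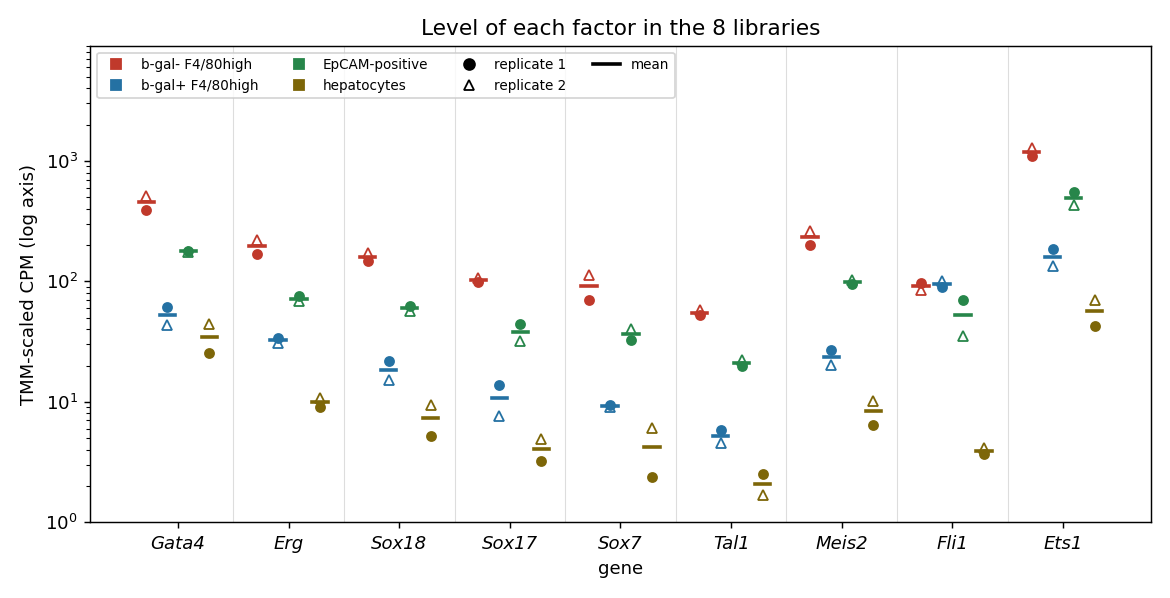
Level of the 9 factors in each library, in TMM-scaled CPM on a log axis; circles are replicate 1, triangles replicate 2, and bars the mean of the 2 libraries of a group. In 8 factors the b-gal- libraries are highest, and for Fli1 the b-gal+ and b-gal- libraries lie together between 85.4 and 100.3 CPM.

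Per kilobase of exon, Ets1 had the highest level of the 9 in b-gal- cells, 140 CPM per kb, followed by Gata4 with 116, Sox18 with 98.1 and Erg with 56.4 CPM per kb. The other 5 lay between 12.6 CPM per kb for Tal1 and 27.7 CPM per kb for Sox7. In b-gal+ cells the first place went to Fli1, at 27.3 CPM per kb against 18.9 for Ets1. In hepatocytes it went to Gata4, at 8.86 CPM per kb against 6.63 for Ets1. These are descriptions on exon lengths of all annotated transcripts, since the isoforms used in the cells were not measured.

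Gata4, the zinc-finger factor of sinusoidal endothelium, lies on chromosome 14 (63198922 to 63271692, minus strand, GRCm38). It was measured at 390 and 514.5 CPM in the b-gal- libraries, 179 and 175 CPM in EpCAM-positive cells, 61.1 and 43.0 CPM in b-gal+ cells and 25.4 and 43.8 CPM in hepatocytes. The b-gal- libraries were highest, and only the b-gal+ and hepatocyte libraries overlapped. The b-gal+ level lay 3.11 below the b-gal- level on the log2 scale, a log2 difference of -3.11 ± 0.30 (SE; limma, Benjamini-Hochberg adjusted p = 0.00119). Between b-gal+ cells and hepatocytes the log2 difference was 0.61, with a 95% interval of -0.09 to 1.32 (limma, adjusted p = 0.118). Without hepatocyte replicate 2 it was 0.97 (adjusted p = 0.0381), and without scaling factors 1.58 (adjusted p = 0.00203).

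Meis2 (chromosome 2, 115863064 to 116065839, minus strand) had 199 and 264 CPM in b-gal- cells, 94.5 and 102 CPM in EpCAM-positive cells, 26.7 and 20.2 CPM in b-gal+ cells and 6.42 and 10.2 CPM in hepatocytes. No groups overlapped. Its hepatocyte mean was 3.59% of the b-gal- mean, the lowest percentage of the 9. The b-gal+ against b-gal- log2 difference was -3.27 ± 0.26 (SE; limma, adjusted p = 0.000908).

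Tal1, a basic helix-loop-helix factor (chromosome 4, 115056426 to 115071755, plus strand), had the lowest level per kilobase of the 9 in all 4 groups. Its libraries had 52.3 and 57.8 CPM in b-gal- cells, 19.7 and 22.3 CPM in EpCAM-positive cells, 5.81 and 4.54 CPM in b-gal+ cells and 2.51 and 1.68 CPM in hepatocytes. The groups kept apart even at these low levels. The b-gal+ against b-gal- log2 difference, -3.30 ± 0.26 (SE; limma, adjusted p = 0.000901), was the lowest of the 9, and its interval of -3.90 to -2.69 took in the estimates of 6 others.

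Sox18, Sox17 and Sox7 share the HMG box of the SoxF group and act in part in place of one another in vessels. Sox18 (chromosome 2, 181669836 to 181671640, minus strand) had 146 and 172 CPM in b-gal- cells, 62.0 and 57.1 CPM in EpCAM-positive cells, 21.7 and 15.2 CPM in b-gal+ cells and 5.24 and 9.34 CPM in hepatocytes. Sox17 (chromosome 1, 4490931 to 4497354, minus strand) had 98.7 and 106 CPM, 44.1 and 32.0 CPM, 13.8 and 7.60 CPM, and 3.25 and 4.87 CPM in the same order of groups. Sox7 (chromosome 14, 63943673 to 63950732, plus strand) had 70.5 and 113 CPM, 32.6 and 40.5 CPM, 9.39 and 9.05 CPM, and 2.36 and 6.07 CPM. No groups overlapped in any of the 3 genes. The b-gal+ against b-gal- log2 difference was -3.09 for Sox18 (limma, adjusted p = 0.00113), -3.26 for Sox17 (adjusted p = 0.00136) and -3.20 for Sox7 (adjusted p = 0.00264), so that the 3 genes were 8.50-fold to 9.56-fold lower in b-gal+ cells. Exons of Sox17 share 804 bases with Gm37587, a gene on the other strand that the files do not list. Whether the counting used strand is not given in the sources used here, so reads of that gene could be counted under Sox17.

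One feature of the SoxF genes followed the replicate number, not the sort; it was singled out after the values were seen. The ratio of Sox7 reads to Sox17 reads was 0.714, 0.680, 0.741 and 0.727 in the b-gal-, b-gal+, EpCAM-positive and hepatocyte libraries of replicate 1. In the replicate 2 libraries the ratio was 1.06, 1.19, 1.27 and 1.25 in the same order. Every replicate 2 library thus lay above every replicate 1 library, while the 4 sorts of a replicate stayed close to each other. In hepatocytes these ratios rest on 32 and 44 reads in replicate 1 and on 76 and 61 reads in replicate 2.

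**Figure D2:**
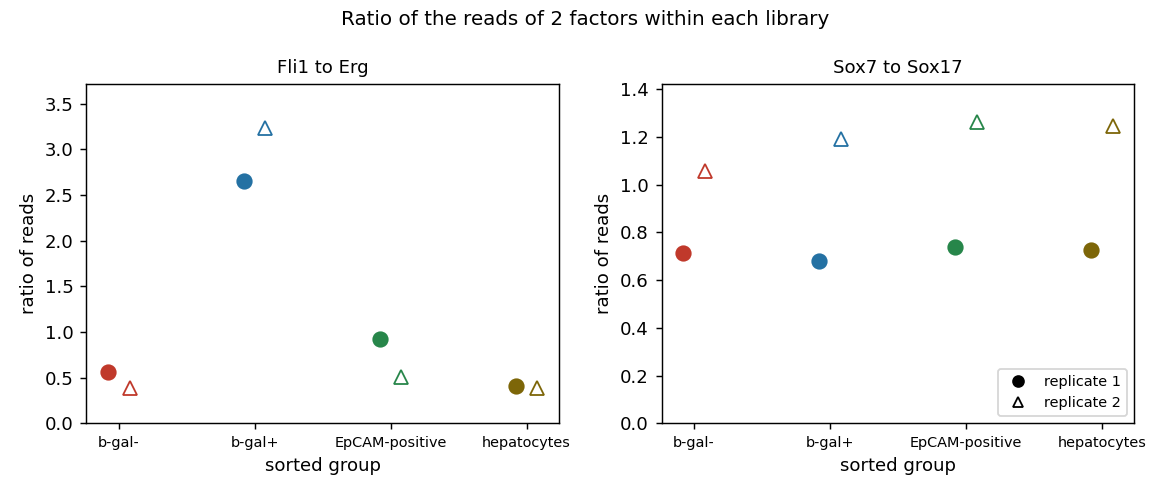
Ratio of the reads of Fli1 to Erg (left) and of Sox7 to Sox17 (right) within each library, by sorted group; circles are replicate 1 and triangles replicate 2, and no scaling enters a ratio. Fli1 exceeds Erg in the b-gal+ libraries alone, and Sox7 to Sox17 separates the replicate numbers in all 4 groups.

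Erg and Fli1 are close relatives within the ETS family, and both act on junction and adhesion genes of endothelium. Erg (chromosome 16, 95359169 to 95586593, minus strand) had 170 and 222 CPM in b-gal- cells, 75.1 and 68.3 CPM in EpCAM-positive cells, 33.9 and 31.0 CPM in b-gal+ cells and 9.08 and 10.8 CPM in hepatocytes. Its groups stood apart, and replicates were close in b-gal+ cells. The b-gal+ against b-gal- log2 difference was -2.56 ± 0.18 (SE; limma, adjusted p = 0.000901), the smallest in size of the 8 that passed, a 5.91-fold lower level.

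Fli1 (chromosome 9, 32422204 to 32542861, minus strand) had 96.3 and 85.4 CPM in b-gal- cells, 89.9 and 100.3 CPM in b-gal+ cells, 69.8 and 35 CPM in EpCAM-positive cells and 3.69 and 4.15 CPM in hepatocytes. The 2 F4/80high groups overlapped, the EpCAM-positive libraries were lower and far apart from each other, and hepatocytes were lowest. The b-gal+ against b-gal- log2 difference was 0.07 with a 95% interval of -0.66 to 0.79 (limma, adjusted p = 0.913). Its sign turned without scaling factors, with the deposited scaling (-0.09 in both) and without b-gal- replicate 2 (-0.02). The interval lay wholly above those of the other 8 factors, whose upper bounds ranged from -2.69 to -2.14. The difference between Fli1 and the other genes was not tested itself.

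Within a library, where scaling plays no part, Fli1 had 2.65 and 3.24 reads for each Erg read in b-gal+ cells. In the b-gal- libraries the ratio was 0.567 and 0.385, in the EpCAM-positive libraries 0.929 and 0.512, and in the hepatocyte libraries 0.407 and 0.385. The summed Kupffer cell and macrophage markers were also highest in the b-gal+ group. They held 35530 to 38753 CPM in b-gal+ cells, 2567 to 3869 CPM in b-gal- cells, 268 to 1303 CPM in EpCAM-positive cells and 271 to 384 CPM in hepatocytes, and none of the 12 was at 0 reads in a group. Adgre1 was also uneven between the EpCAM-positive libraries, with 138 CPM in replicate 1, where Fli1 was higher, and 14.2 CPM in replicate 2. The part of macrophage RNA in the Fli1 level was not tested.

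Ets1 (chromosome 9, 32636221 to 32757820, plus strand), the founding member of the ETS family, had 1088 and 1284 CPM in b-gal- cells, 553 and 434 CPM in EpCAM-positive cells, 186 and 135 CPM in b-gal+ cells and 42.8 and 69.6 CPM in hepatocytes. The b-gal- libraries were highest, hepatocytes lowest, and no groups overlapped. The b-gal+ against b-gal- log2 difference was -2.90 ± 0.29 (SE; limma, adjusted p = 0.00136), a 7.44-fold lower level. Ets1 and Fli1 are neighbours on chromosome 9, with a gap of 93359 bases and no measured gene between them, and differed in the b-gal+ group as given above.

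Comparing the b-gal+ with the b-gal- gate, 8 of the 9 factors were lower in b-gal+ cells and Fli1 was not called, against 13.0% of the 14404 genes tested that were lower (adjusted p under 0.05). The median log2 difference of the 9 was -3.11, where that of all genes was -0.02. The count was 8 in each fit that left out 1 library. With 2 libraries against 2, an exact permutation test of a single gene cannot give a p below 0.333, so the calls rest on the model fitted across genes.

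Between b-gal- and EpCAM-positive cells, 7 of the 9 were higher in b-gal- cells, against 5.63% of all genes, with a median log2 difference of 1.34 (all genes 0.07). The estimates were close together, from 1.22 for Meis2 to 1.44 for Sox17 among the 7. Sox7 had 1.28 (limma, adjusted p = 0.0900, and 0.0441 with the replicate number as a block) and Fli1 0.87 (adjusted p = 0.110, and 0.00513 with a difference of 1.36 without EpCAM-positive replicate 1). These calls depended on single libraries, and so did the share of all genes called. That share was lower than with all libraries in each fit that left out 1 library, except that without EpCAM-positive replicate 1. None of the 9 was called without b-gal- replicate 1 or without b-gal- replicate 2, when limma called 0.0139% and 0% of all genes; at an unadjusted p under 0.05 the counts were 8 and 7. With all libraries edgeR called 6 of the 9, where it called 563 of 14404 genes higher and 780 lower. DESeq2 called 8, where it called 1213 genes higher and 1642 lower. The count was 6 without EpCAM-positive replicate 1, where Gata4 (adjusted p = 0.0625) and Meis2 (0.0634) lost their calls. It was 2 without EpCAM-positive replicate 2, without b-gal+ replicate 2 or without hepatocyte replicate 1, and 3 without b-gal+ replicate 1 or without hepatocyte replicate 2. The log2 difference of Erg was 1.24 to 1.62 in the fits without a b-gal- library.

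All 9 were higher in b-gal- cells than in hepatocytes, against 33.5% of all genes. The log2 differences ran from 3.73 for Gata4 to 4.74 for Meis2, 13.2-fold to 26.7-fold, with a median of 4.40 (all genes 0.17). EpCAM-positive cells also had all 9 above hepatocytes, against 33.5% of all genes, with log2 differences from 2.39 for Gata4 to 3.52 for Meis2 and a median of 3.08 (all genes 0.15). Both counts were 9 in every fit that left out a library.

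In b-gal+ cells 8 of the 9 were lower than in EpCAM-positive cells, against 17.9% of all genes, with a median log2 difference of -1.78 (all genes -0.03). The range of the 8 was -2.05 for Meis2 to -1.13 for Erg. Fli1 had 0.93 (limma, adjusted p = 0.0558), and 1.43 (adjusted p = 0.00229) without EpCAM-positive replicate 1. Without b-gal+ replicate 2 the log2 differences were -1.41 for Sox18, -1.88 for Sox7 and -1.37 for Ets1, and these lost their calls. Fewer of all genes were called in that fit as well, which left 1 b-gal+ library. Sox7 was also not called without EpCAM-positive replicate 2 (adjusted p = 0.0564) or without b-gal+ replicate 1 (0.0612).

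Set against hepatocytes, 8 of the 9 were higher in b-gal+ cells, against 29.5% of all genes, with a median log2 difference of 1.31 (all genes 0.10). Fli1 had 4.43, a 21.6-fold difference, and the other 7 had 1.14 for Tal1 to 1.66 for Erg. Gata4 was the factor not called, as given above. Sox7, at 1.16 (limma, adjusted p = 0.0454), lost its call in 7 of the 8 fits that left out 1 library, hepatocyte replicate 2 being the exception. Without b-gal+ replicate 1 the log2 differences of Sox17 and Tal1 were 0.85 and 0.98, and both lost their calls as well. Sox17 was also lost without hepatocyte replicate 1, at 0.99. In both of these fits fewer of all genes were called than with all libraries. The 6 comparisons share libraries and are not independent of each other.

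**Figure D3:**
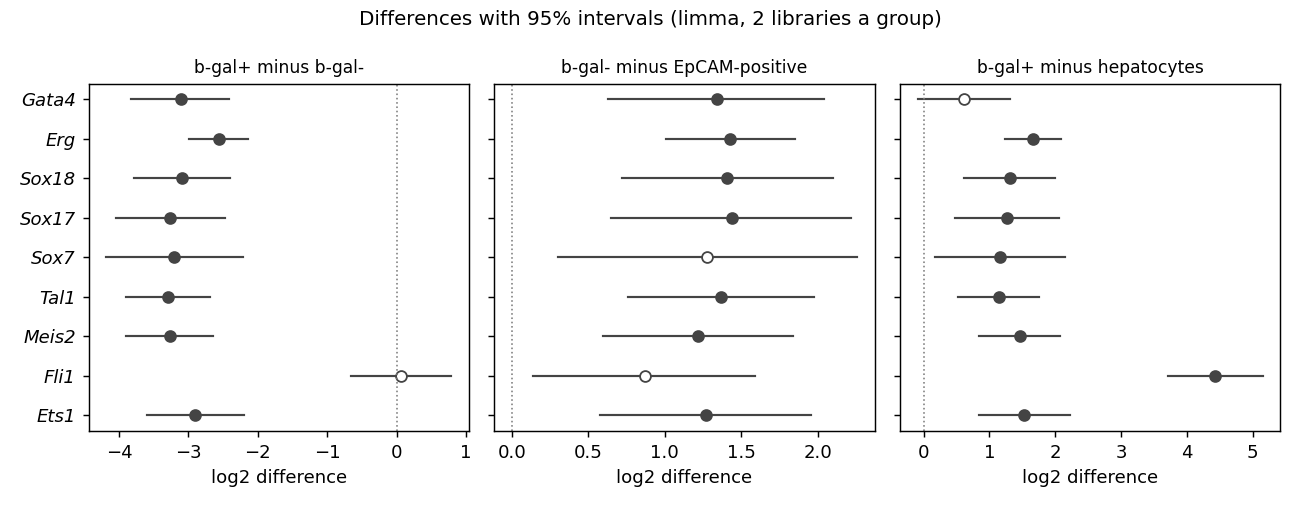
Log2 differences of the 9 factors in 3 of the 6 comparisons, with 95% intervals from limma; filled points have an adjusted p under 0.05 and open points do not. Fli1 sits at 0.07 in the b-gal+ against b-gal- panel while the other 8 lie between -3.30 and -2.56, and at 4.43 against hepatocytes.

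As a percentage of the b-gal- mean, the 8 factors other than Fli1 lay in narrow bands. Fli1 was left out of these bands after its values were seen, which narrows the b-gal+ and EpCAM-positive bands by choice. They stood at 9.41% to 16.6% in b-gal+ cells (median 10.98%), at 36.7% to 42.4% in EpCAM-positive cells (median 38.7%) and at 3.59% to 7.66% in hepatocytes (median 4.59%). Fli1 stood at 105%, 57.7% and 4.32%. The 20 endothelial receptor and junction genes had medians of 10.3%, 38.5% and 3.59%, and the 14 sinusoidal markers in the files 10.5%, 37.5% and 3.67%. No gene was left out of these lists, and in b-gal+ cells they spanned 8.88% to 68.2% and 8.22% to 236.8%. Kupffer cell and macrophage markers had medians of 1231%, 23.2% and 10.7%, and stellate cell markers 62.4%, 70.4% and 42.0%. Other endothelial lists had other medians: large-vessel markers 18.96%, 59.5% and 4.62%, and the other endothelial regulators 69.0%, 57.6% and 12.8%. The medians of the 8 factors were thus nearest to those of the receptor and sinusoidal lists in b-gal+ and EpCAM-positive cells, and to that of the large-vessel list in hepatocytes, with no test.

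**Figure D4:**
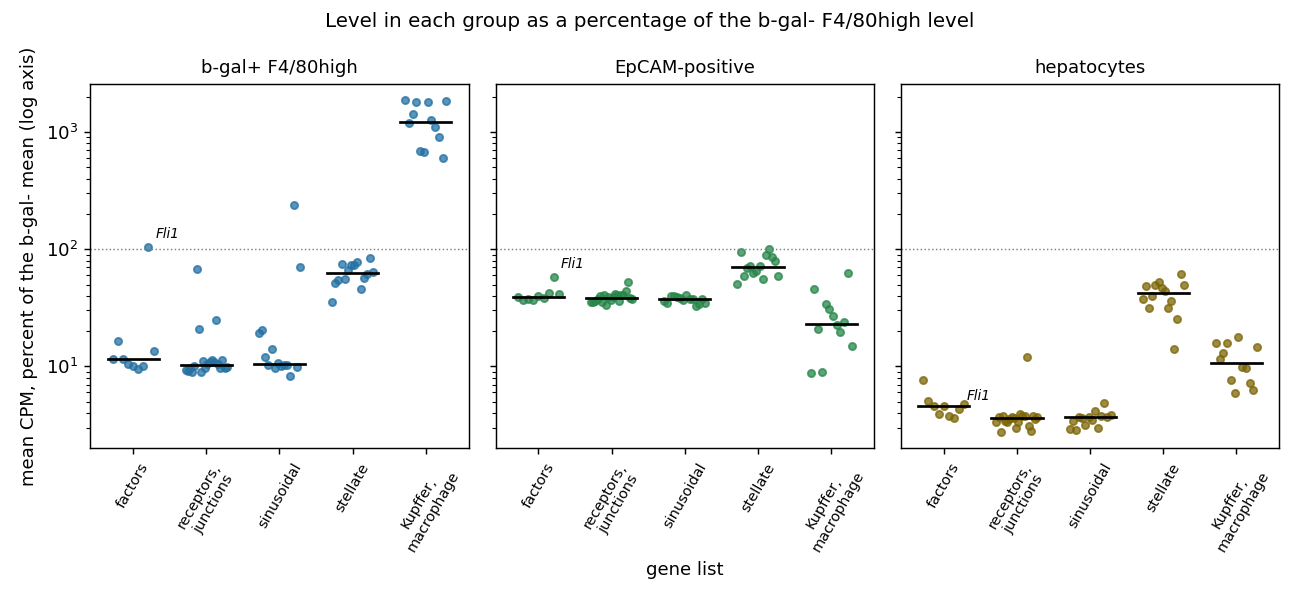
Mean level in b-gal+, EpCAM-positive and hepatocyte libraries as a percentage of the b-gal- mean, on a log axis, for each gene of 5 lists; bars are list medians and the dotted line is 100%. The 8 factors other than Fli1 lie at 9.41% to 16.6%, 36.7% to 42.4% and 3.59% to 7.66% from left to right, near the medians of the 2 endothelial lists drawn; large-vessel markers, not drawn, have medians of 18.96%, 59.5% and 4.62%.

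A reading free of scaling set each factor against the 20 receptor and junction genes of its own library: the log2 level relative to the b-gal- mean, minus the median of those 20 genes. In EpCAM-positive cells the means of the 8 factors other than Fli1 were -0.07 to 0.14, where the middle 50% of the 20 genes spanned -0.10 to 0.07, with Meis2 (0.14) and Ets1 (0.10) above it. In b-gal+ cells they were -0.13 to 0.70, and 5 of the 8 lay outside the middle span of -0.12 to 0.11. Erg (0.53 and 0.86 in replicates 1 and 2), Ets1 (0.39 and 0.38), Sox18 (0.19 and 0.14) and Gata4 (0.18 and 0.13) were above it, and Tal1, with a mean of -0.13, just below. Fli1 was at 3.05 and 3.66, above the highest of the 20 genes, Cdh5, which encodes the junction cadherin of endothelium and had a mean of 2.71.

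Cdh5 itself had 1372 and 1468 CPM in b-gal- libraries and 1142 and 794 CPM in b-gal+ libraries, with a log2 difference of -0.58 (limma, adjusted p = 0.324). It was the 1 receptor or junction gene of 20 not called lower in b-gal+ cells.

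In hepatocytes Gata4 stood at 1.25 and 1.05 on this scale in both replicates, against a middle span of -0.08 to 0.10 and a highest mean of 1.82. Of the 8 factors 7 had a mean above that span, Meis2 (0.07) being the exception. Erg was at 0.97 and 0.24, Ets1 at 0.61 and 0.33, and Sox18 at 0.48 and 0.33. Tal1 had 0.94 and -0.62, apart between replicates, at 2.51 and 1.68 CPM. Stellate cell markers, whose cells are known to express Gata4, summed to 375 to 594 CPM in hepatocytes and 1098 to 1429 CPM in b-gal- cells, with none of the 14 at 0 reads in either group. Their part in the Gata4 level, like that of hepatocytes themselves, was not tested.

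**Figure D5:**
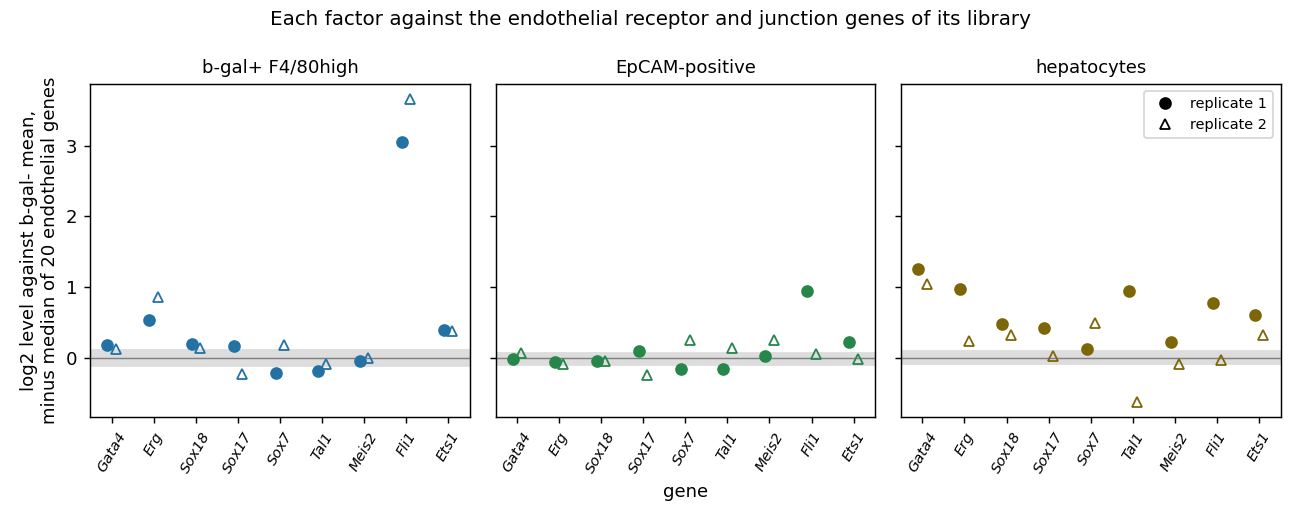
Log2 level of each factor relative to its b-gal- mean, minus the median of the same quantity over 20 endothelial receptor and junction genes in the same library; circles are replicate 1, triangles replicate 2, and the grey band is the middle 50% of the 20 genes. Fli1 is at 3.05 and 3.66 in b-gal+ cells and Gata4 at 1.25 and 1.05 in hepatocytes.

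Profiles over the 8 libraries were compared by Pearson's r of log2(CPM + 0.5), as a description, since the libraries share sorts and replicate numbers. Pairs of factors other than Fli1 had r of 0.965 (Gata4 and Erg) to 0.998 (Sox18 and Ets1). Pairs with Fli1 had r of 0.610 to 0.785. Among 10903 genes searched, the 10 nearest to the mean profile of the 9 were Tspan18 (r = 0.9990), Robo4, Srgap1, Esam, Tmem44, Rasip1, Cd55, Bcl6b, Nos3 and Fcgr2b (r = 0.9974). Robo4 is an endothelial guidance receptor, Esam a junction protein, Nos3 the endothelial nitric oxide synthase and Fcgr2b a scavenging Fc receptor of sinusoids.

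Each factor had its own nearest genes. Gata4 was nearest to Bace2, Gipc3 and Btnl9, Meis2 to Gm4980, Ramp2 and Ecm2, and Tal1 to Ica1, Pdlim7 and Osmr. Sox18 was nearest to Fgd5, Arhgap23 and Mmrn2, Sox17 to Csgalnact1, Clec14a and Rgs7bp, and Sox7 to Amotl1, Lrrc32 and Ppfia2. The nearest to Erg were Tmem88, Tspan18 and Ldhb, and to Ets1 Oit3, Robo4 and Kctd17. Fli1 was nearest to Msn, which encodes the membrane-cytoskeleton linker moesin (r = 0.9977), Git2 and Necap2. Msn had 903 CPM in b-gal- cells and 974 CPM in b-gal+ cells on average, near equal as for Fli1.

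Relatives of the 9 in the same families did not all share their order. Of 15 relatives, 11 were tested; 3 were lower and 1 was higher in b-gal+ than in b-gal- cells, against 13.0% and 10.4% of all genes, with a median log2 difference of -1.02. Gata2, a partner of Tal1 in blood and endothelium, stood at 10.4% of its b-gal- mean in b-gal+ cells, a log2 difference of -3.12 (limma, adjusted p = 0.000938), a value close to that of Gata4. Meis1, with -2.02 (adjusted p = 0.00176), and Ets2, with -1.08 (adjusted p = 0.0176), were also lower. Meis3 was higher, at 40.6 against 4.11 CPM, a log2 difference of 3.14 (adjusted p = 0.00191), the opposite direction to Meis2. Lyl1, the nearest relative of Tal1, was at 28.2 ± 9.32 CPM in the b-gal- group against 36.4 ± 7.27 CPM in the b-gal+ group (SD, n = 2 each; limma, adjusted p = 0.664). Sox9, a cholangiocyte factor, was at 116 ± 121 CPM in EpCAM-positive cells and 0.683 CPM in b-gal- cells, and Gata6 was at 69.7 ± 54.5 against 8.71 ± 6.15 CPM (SD, n = 2; limma, adjusted p = 0.116).

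The 27 other regulators and the relatives were listed for their known roles, with earlier results of these data known. Among these 27 other regulators of endothelium, 26 were tested; 9 were lower and 4 higher in b-gal+ than in b-gal- cells, against 13.0% and 10.4% of all genes, with a median log2 difference of -0.46. Nr2f2, the venous fate factor, stood at 11.9% of its b-gal- mean in b-gal+ cells, Epas1, which encodes the hypoxia factor HIF-2 alpha, at 14.4%, and the ETS factor Elk3 at 17.4%; all 3 were called, with log2 differences of -3.07, -2.81 and -2.51. Smad6, at -1.84, and Foxo1, at -1.63, were called lower as well. Id3 was called higher, at 0.55 (limma, adjusted p = 0.0437), as were Hey1, Id1 and Tfec, named after their values were seen. Klf2, the flow-responsive factor, had 660 ± 77.2 CPM without and 946 ± 7.56 CPM with b-gal activity (SD, n = 2 each; limma, adjusted p = 0.0922), and Klf4 333 ± 17.6 and 333 ± 36.1 CPM (adjusted p = 0.997). Maf, a factor of sinusoidal endothelium and macrophages, had -0.60 (adjusted p = 0.0577) and Etv6 0.26 (adjusted p = 0.374). Log2 differences of the 26 ran from -3.12 to 2.76, past that of Fli1 at the upper end.

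Endothelial markers of other roles gave the following counts for b-gal+ against b-gal- cells, where 13.0% of all genes were lower and 10.4% higher. Of the receptor and junction genes 19 of 20 were lower (median log2 difference -3.28), of the sinusoidal markers 12 of 14 lower and 1 higher (-3.26), and of large-vessel markers 9 of 12 lower (-2.57). Of the stellate cell markers 1 of 14 was lower (-1.03), a share near that of all genes, and of the Kupffer cell and macrophage markers 11 of 12 were higher (3.62). The exceptions in these lists are named after their values were seen. Among the sinusoidal markers Clec1b was called higher, with a log2 difference of 1.25 (limma, adjusted p = 0.00272), and Mrc1 was not called, at -0.51 (adjusted p = 0.448). The large-vessel markers not called were Selp (limma, adjusted p = 0.0588), Rspo3 (0.0713) and Gja5 (0.277), all with negative differences. Rgs5 was the 1 stellate marker called lower. Adgre1 was the macrophage marker not called, at 2.91 (adjusted p = 0.0730).

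Gata4 and Sox7 lie on the same stretch of chromosome 14, with a gap of 671980 bases, and both were lower in b-gal+ cells. Genes between them did not all follow. Blk, a B cell kinase, was lower in b-gal+ cells with a log2 difference of -2.65 (limma, adjusted p = 0.00732), and Fam167a was higher, at 92.4 against 6.18 CPM, with 3.79 (adjusted p = 0.000908). Mtmr9 had -0.53 (adjusted p = 0.199), Xkr6 -1.08 (adjusted p = 0.0528) and Pinx1 0.16 (adjusted p = 0.822), and Tdh had too few reads to be tested. Outside the pair, Neil2 had 0.14 (adjusted p = 0.878). Beyond Fli1 and Ets1 on chromosome 9, Kirrel3 had 0.14 (adjusted p = 0.899) and Kcnj1 was not tested.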

How the data were processed

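RNA of 8 libraries of sorted cells was sequenced in bulk. Per the submitters' processing notes, reads were counted with HTSeq on GRCm38.p4 (mm10). The aligner, annotation and scaling step are not given in the sources used here. For hepatocyte replicate 1 the authors deposited plain read counts by gene symbol. The authors' values in the other 7 files are counts multiplied by 1 factor per library, 1.08 to 1.54, written with decimal commas. Division by the smallest step, refined by least squares, gave whole numbers for 100% of values within 0.01 reads. In each file 14 rows carry a number in place of a symbol (0.0514% to 0.182% of reads) and were left out.

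Recovered reads were scaled with TMM (edgeR 4.0.16; factors 0.527 to 1.48) to CPM, and 14404 genes passed the default filter of edgeR. limma 3.58.1 with a trend was fitted on log2(CPM + 0.5) over all 8 libraries, two-sided, with Benjamini-Hochberg adjustment over all genes tested in each of 6 comparisons; adjusted p under 0.05 is a call. The fit was also run on simulated data with no effect of replicate number and a common mean for each unchanged gene. Those data lack the wide group differences of the real libraries, so that run does not test the calls given here. Fold changes are on the log2(CPM + 0.5) scale, which understates changes of low genes. edgeR's quasi-likelihood test called 1239 genes higher and 1736 lower in b-gal+ against b-gal- cells, where limma called 1491 and 1867, DESeq2 (version 1.42.0) 2309 and 2059, limma with size factors of DESeq2 1795 and 1704, limma without scaling factors 1164 and 2252, and limma with the deposited scaling 1111 and 2304. Other scalings, pseudocounts and filters, the omission of each library and a replicate block were alternatives; TMM factors from all genes were added after seeing the data. Descriptions and figures used Python 3.11.15, pandas 2.3.3 and matplotlib 3.10.9.

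Over all genes, same-numbered libraries deviated together: the correlation of deviations from group means was 0.177 to 0.494 in the 6 pairs of groups. Over the factors alone this correlation was not positive in every pair. It was -0.04 between b-gal- and b-gal+ cells, -0.154 between b-gal+ and EpCAM-positive cells and -0.155 between b-gal+ cells and hepatocytes. In the pairs without b-gal+ cells it was 0.832 (b-gal- and EpCAM-positive), 0.619 (b-gal- and hepatocytes) and 0.213 (EpCAM-positive and hepatocytes). On the values over all genes the numbers were taken to pair the samples, but the main fit held no replicate block. Its p-values are therefore unpaired. With the block, limma called 1899 genes higher and 2162 lower in b-gal+ against b-gal- cells.

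Members and gene lists were chosen with earlier results of these data known. Named are the 9 factors; at most 6 genes of each other list by highest mean CPM, or 10 for regulators and relatives; Kdr, Stab2, Cdh5, Adgre1, Clec4f, Epcam and Alb as check genes; the 10 genes nearest the mean profile and 3 nearest each factor (mean of at least 10 CPM in a group); and neighbours of factors that lie within 1 Mb of each other. Positions and exon lengths are from GENCODE M21 on GRCm38.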

Additional observations from a re-analysis of the deposited data

How the results depend on the processing

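Fits of the 9 factors in 6 comparisons under 19 alternatives gave 1026 values, of which 939 kept their direction and their side of the threshold. A further 75 kept the direction and lost the call, 9 gained a call and 3 changed sign. The 3 were all Fli1 in b-gal+ against b-gal- cells, -0.09 without scaling factors, -0.09 with the deposited scaling and -0.02 without b-gal- replicate 2. The count for b-gal- against EpCAM-positive cells, 7 as reported, was 3 without scaling factors and 3 with the deposited scaling. Of all 14404 genes, these fits called 272 and 372 higher, where the main fit called 811. By limma the count was 0 when only the libraries of both groups were fitted (8 at an unadjusted p under 0.05). That fit called 0 of all genes in either direction, so its count does not set the factors apart. From all libraries, not from that fit, edgeR called 6 and DESeq2 8. The count also depended on single libraries, as given above. When 1 library was left out, the count of calls in either direction was 5 to 9 for b-gal+ against EpCAM-positive cells, where the 9 holds 8 lower factors and Fli1 called higher, and 5 to 9 for b-gal+ cells against hepatocytes. The share of all genes called moved between these fits as well. The cause was not tested. With the replicate block the count for b-gal- against EpCAM-positive cells was 8, with Sox7 added; the block changed no other call of a factor. Without scaling factors the median log2 difference of all genes moved from 0.17 to 1.08 for b-gal- cells against hepatocytes, from 0.10 to 0.82 for b-gal+ cells against hepatocytes and from 0.15 to 1.37 for EpCAM-positive cells against hepatocytes, so levels against hepatocytes are relative to the scaling. The deposited scaling moved these medians to 1.13, 0.87 and 1.32. In hepatocytes, Tal1, Sox7, Sox17 and Fli1 stood at few reads, and their ratios there are the least precise.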
